A study of Mus musculus with 6 samples.

Results

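The MHC class II pathway was followed through 8 genes, chosen by name: the class II chains H2-Aa, H2-Ab1 and H2-Eb1, the peptide-loading genes H2-DMa, H2-DMb1 and H2-Oa, the invariant chain Cd74 and the transactivator Ciita. All 8 had a row in the table of 23930 genes, and all 8 passed the filter on low values. The samples were CD31-positive cells sorted from Lewis lung carcinoma (LLC) tumours that had grown for 2 weeks under the skin of C57/Bl6 mice. LLC is a mouse lung cancer line, and CD31 (Pecam1) joins endothelial cells to each other and is carried by many leukocytes too. In 3 libraries (BMP9 overexpression, replicates 4, 5 and 6) the injected LLC cells overexpressed BMP9, a ligand that signals in endothelial cells, and in 3 (Control, replicates 1, 2 and 3) they were control cells. It was thus the tumour cells, not the sorted cells, that were engineered, and both groups share the line, the host strain, the site, the time and the sort. Whether each library stands for its own animal is not said in the labels, so a p-value here measures spread among these libraries that may be technical. Levels are RPM, the reads of a gene's 1 amplicon scaled to the total reads of its library.

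Class II molecules show peptides from endosomes to CD4 T cells. They are made by dendritic cells, B cells and macrophages, and by other cells under interferon gamma. An α and a β chain pair in the endoplasmic reticulum with the invariant chain CD74, which fills the groove and guides the complex to endosomes, where cathepsins cut it down to the fragment CLIP. H2-DM, made of the H2-DMa and H2-DMb chains, swaps CLIP for antigen peptide, and H2-O, made of the H2-Oa and H2-Ob chains, restrains H2-DM. CIITA is a coactivator without DNA binding of its own that joins RFX, CREB and NF-Y on the X and Y boxes of class II promoters. C57BL/6 mice carry a defective E α chain gene, so the H2-Eb1 chain has no partner for a surface I-E molecule in this strain.

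Letters of the X and Y boxes were found in the promoters of 4 of the 8 genes, and the stretches that hold them are shown so that these 4 can be set side by side. Promoters (250 bases before to 50 after the gene's start, RefSeq, GRCm38.p6) were matched for 5 of the 8 genes, H2-Aa, H2-DMa, H2-DMb1, H2-Eb1 and H2-Oa. Capitals mark GNAAC, letters found in the X box, and TGATTGG, which holds the inverted CCAAT of the Y box, and each line is written 5′ to 3′ on the strand of the gene.
H2-Aa: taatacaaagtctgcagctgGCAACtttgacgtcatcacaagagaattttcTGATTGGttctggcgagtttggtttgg
H2-Eb1: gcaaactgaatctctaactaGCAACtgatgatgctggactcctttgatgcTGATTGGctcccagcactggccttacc
H2-DMb1: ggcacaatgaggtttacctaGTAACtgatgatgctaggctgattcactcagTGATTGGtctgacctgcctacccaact
H2-Oa: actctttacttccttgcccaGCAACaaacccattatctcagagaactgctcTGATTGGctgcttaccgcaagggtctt
These lie at chr17:34287847-34287924 on the minus strand for H2-Aa, and on the plus strand at chr17:34305756-34305832 for H2-Eb1, chr17:34153077-34153154 for H2-DMb1 and chr17:34092283-34092360 for H2-Oa. The gap between the motifs was 25 bases in H2-Eb1 and 26 bases in the other 3. GNAAC occurs in 84.8% and TGATTGG in 7.82% of 32851 promoters of this length on either strand, and the pair on 1 strand, 15 to 40 bases apart and not overlapping, in 0.715%. These letters and limits were set after the promoters had been read. Neither of the 2 H2-DMa promoter windows held the pair, which says only that these letters are not in those windows.

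The libraries held between 1321762 and 28380957 reads, so that 3 reads stood for 0.106 to 2.27 RPM. Pecam1, which encodes CD31, stood at 303 ± 53.5 RPM in BMP9 overexpression and 448 ± 84.3 RPM in Control libraries (SD, n = 3 each; log2 fold change -0.56, limma adjusted p = 0.12). Of 10 endothelial markers 7 did not pass the filter on low values, and Cdh5, the VE-cadherin of endothelial junctions, was at 6.15 ± 2.63 RPM in BMP9 overexpression and 9.81 ± 4.65 RPM in Control libraries. BMP9 itself (Gdf2) was at 0.506, 0.227 and 0.176 RPM in BMP9 overexpression replicates 4, 5 and 6 and listed at 0 RPM in Control libraries. The values of replicates 4 and 5 are 1 read each. As 1 read stood for 0.218 to 0.757 RPM in Control libraries, the groups cannot be told apart at this level. Of the 3 tested endothelial markers 1 fell, the VEGF receptor Kdr (log2 fold change -1.32, limma adjusted p = 0.025), where 22.5% of all tested genes fell. Kdr was at 3.04, 4.76 and 2.96 RPM in BMP9 overexpression replicates 4, 5 and 6, against 6.76, 19.7 and 8 RPM in Control replicates 1, 2 and 3. It thus passed the filter of 5 RPM in 3 libraries only through the Control libraries, with as few as 6 reads, so its call is no support for an endothelial change. The call was lost in 8 alternatives, among them TMM scaling and leaving out Control replicate 2 (-0.89) or BMP9 replicate 6 (-1.23). The sort label thus rests on Pecam1, while the defining transcripts of endothelial cells were scarce. By the run time stamps in the labels, BMP9 replicate 4 shares the earlier stamp with all 3 controls, while replicates 5 and 6 carry a later one. Values within the earlier stamp therefore set replicate 4 alone against the controls and assume that it varies as they do.

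Cd74, Ciita, H2-DMb1 and H2-Eb1 were higher in BMP9 overexpression libraries, by 2.57-fold, 2.36-fold, 2.43-fold and 2.11-fold, while H2-Aa, H2-Ab1, H2-DMa and H2-Oa did not pass the test. Thus 4 of the 8 genes rose and 0 fell (limma-trend on log2(RPM + 1), threshold 0.05 on Benjamini-Hochberg adjusted p over 9460 genes), where 35.2% of all tested genes were called, 12.7% higher and 22.5% lower. For the 4 genes that rose the groups did not overlap, as was so in that direction for 16.8% of tested genes. At an unadjusted p under 0.05 limma gave 0 lower as well, and edgeR and DESeq2 on recovered reads each gave 4 higher and 0 lower. The median log2 fold change was 0.68 over the 8 genes and -0.24 over all tested genes, or 0.93 and 0.0039 after TMM scaling, which turned the split over all genes of 1200 higher and 2130 lower into 1629 higher and 1383 lower. The share of reads taken by the 8 genes was 1.95%, 1.45% and 1.28% in BMP9 overexpression replicates 4, 5 and 6, against 0.558%, 0.829% and 1.07% in Control replicates 1, 2 and 3. Without Control replicate 1, the lowest of the controls for Cd74 and all 3 chains, 2 of the 8 genes remained higher (H2-DMb1 and Ciita).

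**Figure D1:**
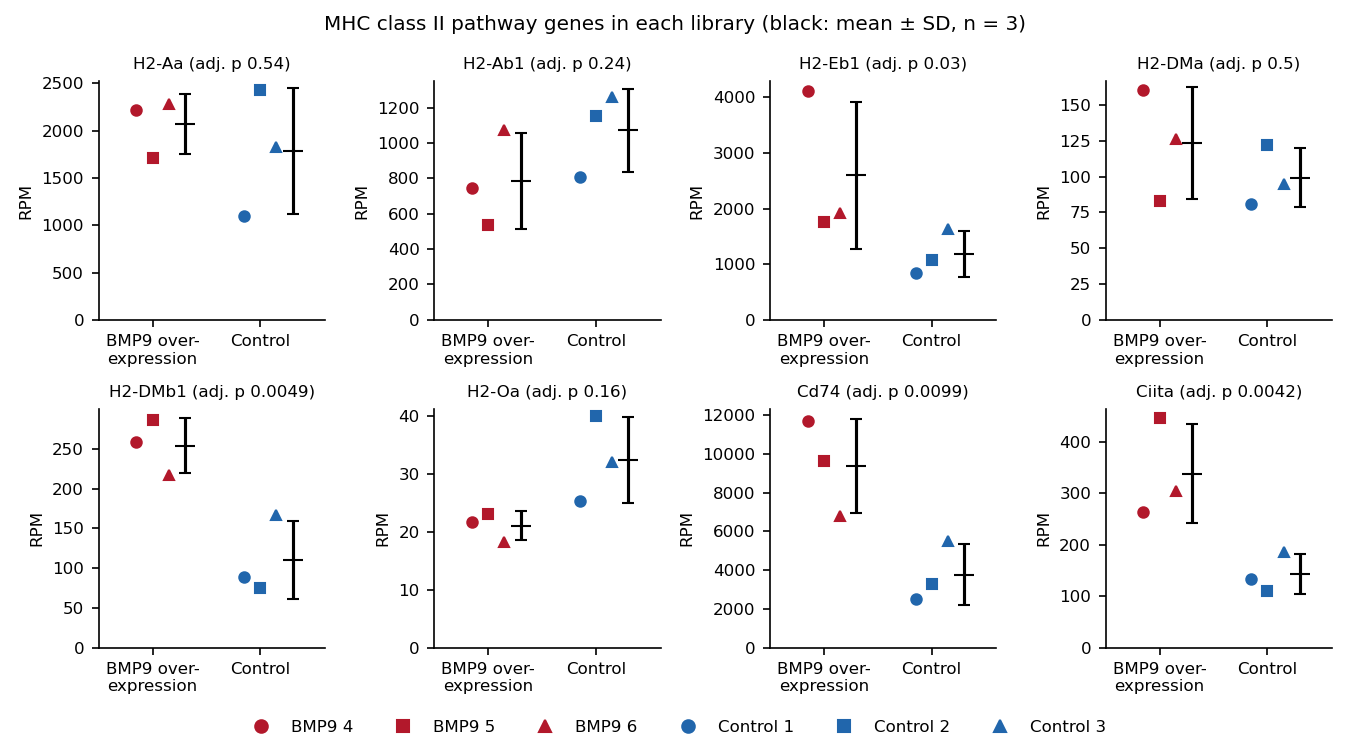
RPM of the 8 class II pathway genes in each library (vertical axes from 0, 1 panel per gene), with BMP9 overexpression libraries left of Control libraries and black marks for mean ± SD (n = 3 each). For Cd74, Ciita, H2-DMb1 and H2-Eb1 the lowest BMP9 overexpression library lies above the highest Control library, and for H2-Oa the highest BMP9 overexpression library, at 23.1 RPM, lies below the lowest Control library, at 25.3 RPM.

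H2-Aa encodes the α chain of I-A, the class II molecule that C57BL/6 mice display (chromosome 17, 34282744 to 34287823, minus strand, mm10). It was at 2224, 1709 and 2280 RPM in BMP9 overexpression replicates 4, 5 and 6, against 1103, 2433 and 1826 RPM in Control replicates 1, 2 and 3. The groups overlapped, and both the lowest and the highest library were controls. The log2 fold change was 0.27 (SE 0.32, 95% confidence interval -0.42 to 0.97, limma adjusted p = 0.54), or 0.53 with TMM scaling and -0.037 without Control replicate 1. The difference was therefore within the spread between replicates.

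H2-Ab1 encodes the β chain that pairs with H2-Aa (chromosome 17, 34257689 to 34269419, plus strand). Its level was 747, 537 and 1075 RPM in BMP9 overexpression replicates 4, 5 and 6, against 807, 1151 and 1258 RPM in Control replicates 1, 2 and 3. Replicates 4 and 5 lay below every control and replicate 6 between them, so the groups overlapped. The log2 fold change was -0.48 (SE 0.31, interval -1.14 to 0.18, limma adjusted p = 0.24), with -0.50 within the earlier run time stamp and -0.22 after TMM scaling.

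H2-Eb1 encodes the E β chain (chromosome 17, 34305867 to 34316674, plus strand), whose promoter is printed above. It stood at 4116, 1751 and 1916 RPM in BMP9 overexpression replicates 4, 5 and 6, against 835, 1072 and 1632 RPM in Control replicates 1, 2 and 3. The groups did not overlap, but replicate 4 stood far above every other library and replicate 5 close above Control replicate 3. The log2 fold change of 1.08 (SE 0.36, interval 0.31 to 1.85) passed the test (limma adjusted p = 0.03), with 1.86 within the earlier stamp, where replicate 4 is the only BMP9 overexpression library. The call was lost without BMP9 replicate 4 (0.69, adjusted p = 0.087), without Control replicate 1 (0.86, adjusted p = 0.14) or 2 (1.04, adjusted p = 0.079), and after quantile normalization (0.95, adjusted p = 0.061), over a range of adjusted p from 0.0011 to 0.2 across alternatives. H2-Ea-ps, the defective E α gene, had 0 reads of 42670098 over the 6 libraries, so that by counting error alone its pooled level could reach 0.0703 RPM. BMP9 replicate 6 gave 28380957 of these reads, so the limit is mostly that of 1 library. In a single library the limit was as high as 2.27 RPM, in Control replicate 2.

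The share of each chain in the class II chain transcripts was set side by side, as a description without a test. H2-Eb1 gave 58.1%, 43.8% and 36.3% of the summed RPM of the 3 chains in BMP9 overexpression replicates 4, 5 and 6, against 30.4%, 23% and 34.6% in Control replicates 1, 2 and 3. H2-Ab1 gave 10.5%, 13.4% and 20.4% in the same BMP9 overexpression libraries and 29.4%, 24.7% and 26.7% in the controls. Neither share overlapped between groups, though the nearest H2-Eb1 shares were close, at 36.3% in BMP9 overexpression and 34.6% in Control libraries, and the share of H2-Aa overlapped. These shares mix the yields of different amplicons, so they compare libraries and not the chains with each other.

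Ratios within a library were set beside these shares. The ratio of H2-Eb1 to H2-Ab1 was 5.51, 3.26 and 1.78 in BMP9 overexpression replicates 4, 5 and 6, against 1.03, 0.932 and 1.3 in Control replicates 1, 2 and 3; this pair was chosen after its values were seen and was not tested. Of the 6 pairs compared by an exact two-sided permutation test, which cannot go below p = 0.1 with 3 against 3 libraries, H2-Ab1 minus H2-Aa on the log2(RPM + 1) scale was -1.44 ± 0.31 in BMP9 overexpression and -0.69 ± 0.34 in Control libraries (SD, n = 3 each). That difference of -0.75 had an exact permutation p of 0.1, or 0.3 adjusted over the 6 pairs, and was -0.88 within the earlier stamp. For H2-Eb1 minus H2-Aa the difference was 0.81 (exact permutation p = 0.2, adjusted 0.3), or 1.47 within the earlier stamp. H2-DMa minus H2-Aa differed by 0.0028 (exact permutation p = 1), a contrast near 0 whose sign changed under several alternatives.

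**Figure D2:**
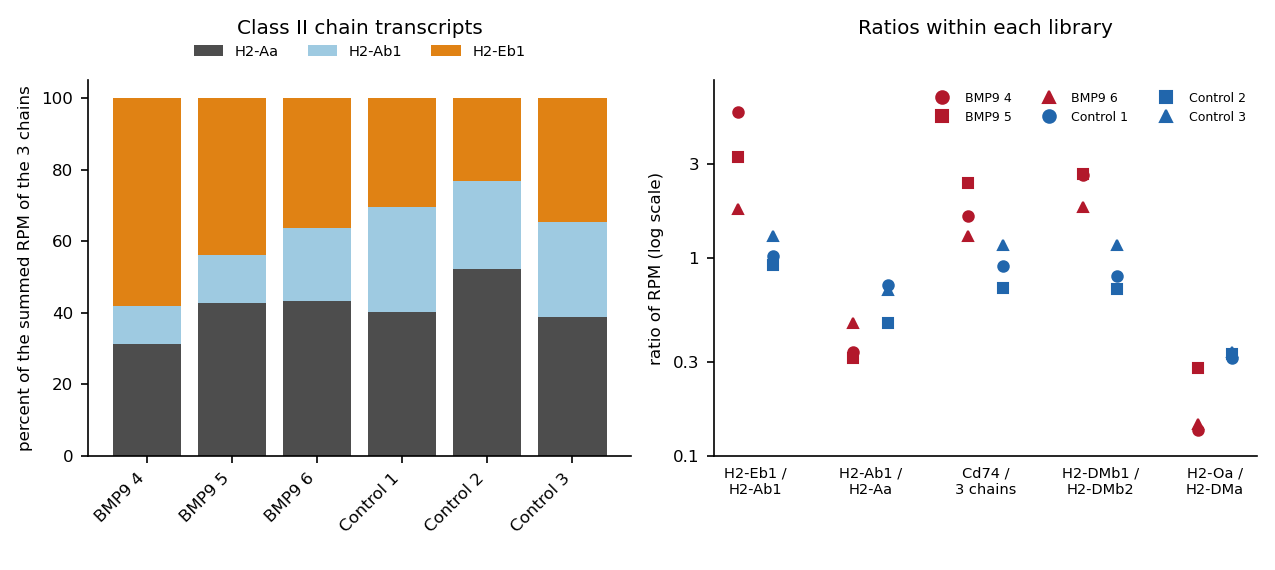
Left, percent of the summed RPM of H2-Aa, H2-Ab1 and H2-Eb1 given by each chain, 1 bar per library; right, ratios of RPM within each library on a log axis, BMP9 overexpression in red left of Control in blue. The H2-Eb1 part is 36.3% or more in BMP9 overexpression libraries and 34.6% or less in Control libraries, and the ratios of H2-Eb1 to H2-Ab1, Cd74 to the 3 chains and H2-DMb1 to H2-DMb2 are higher in every BMP9 overexpression library than in any Control library.

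Cd74, the invariant chain, was the most abundant of these transcripts by amplicon reads. It was at 11698, 9647 and 6820 RPM in BMP9 overexpression replicates 4, 5 and 6, against 2508, 3288 and 5521 RPM in Control replicates 1, 2 and 3. The groups did not overlap, and the highest control lay close under the lowest BMP9 overexpression library. The log2 fold change was 1.36 (SE 0.37, interval 0.58 to 2.14, limma adjusted p = 0.0099) and 1.71 within the earlier stamp (adjusted p = 0.021). Without Control replicate 1 it was 1.10 and the call was lost (adjusted p = 0.069, in a range of 3.9e-05 to 0.24 over alternatives).

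Cd74 was also set against the chains it accompanies. The 3 chains together summed to 7087, 3998 and 5272 RPM in BMP9 overexpression replicates 4, 5 and 6, against 2745, 4656 and 4717 RPM in Control replicates 1, 2 and 3, and the groups overlapped. Cd74 per RPM of the 3 chains was 1.65, 2.41 and 1.29 in the BMP9 overexpression libraries and 0.914, 0.706 and 1.17 in the controls, without overlap. For Cd74 minus H2-Aa the log2 difference between groups was 1.09 (exact permutation p = 0.2, adjusted over the 6 pairs 0.3), in a test that cannot reach 0.05 at this size. CD74 is also a surface receptor of the cytokine MIF, with CD44, CXCR2 and CXCR4 as partners. Cd44 and Cxcr4 rose, by 1.25 (SE 0.26, limma adjusted p = 0.002) and 0.99 (SE 0.28, adjusted p = 0.012) on the log2 scale, and the Cxcr4 call was lost without Control replicate 1 (0.82, adjusted p = 0.081). Cxcr2, at 4.56 to 6.8 RPM in BMP9 overexpression and 0.757 to 3 RPM in Control libraries, did not pass the filter.

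H2-DMb1 encodes a β chain of the peptide exchanger H2-DM (chromosome 17, 34153072 to 34160230, plus strand). It was at 259, 286 and 218 RPM in BMP9 overexpression replicates 4, 5 and 6, against 88.4, 74.9 and 167 RPM in Control replicates 1, 2 and 3. The groups did not overlap, with a log2 fold change of 1.28 (SE 0.31, interval 0.62 to 1.94, limma adjusted p = 0.0049) and 1.32 within the earlier stamp (adjusted p = 0.04). Its neighbour H2-DMb2, a near copy that encodes another H2-DM β chain, was at 97.7, 107 and 120 RPM in BMP9 overexpression and 109, 107 and 142 RPM in Control libraries (log2 fold change -0.13, SE 0.26, adjusted p = 0.72; 0.12 with TMM scaling). The ratio of H2-DMb1 to H2-DMb2 was 2.65, 2.68 and 1.82 in BMP9 overexpression replicates 4, 5 and 6, against 0.812, 0.697 and 1.18 in Control replicates 1, 2 and 3. How the authors' counting split reads between the copies is not given. The 2 genes summed gave 357, 393 and 337 RPM in BMP9 overexpression and 197, 182 and 308 RPM in Control libraries. Their log2 fold change of 0.69 did not pass (limma adjusted p = 0.059) and was fitted in 1 setting only. For H2-DMb1 the adjusted p ran from 8.8e-05 to 0.059 over alternatives, and the sum was the highest of these and the only one in which its call was lost.

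H2-DMa encodes the α chain that both H2-DM β chains need (chromosome 17, 34119541 to 34139101, plus strand). Its level was 161, 82.8 and 126 RPM in BMP9 overexpression replicates 4, 5 and 6, against 81.2, 122 and 95 RPM in Control replicates 1, 2 and 3. The groups overlapped, with a log2 fold change of 0.28 (SE 0.30, interval -0.36 to 0.91, limma adjusted p = 0.5), or 0.71 within the earlier stamp. H2-DMb1 minus H2-DMa differed by 1.0 between groups on the log2 scale (exact permutation p = 0.3, adjusted 0.36).

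H2-Oa encodes the α chain of H2-O, the inhibitor of H2-DM (chromosome 17, 34092340 to 34095234, plus strand). It was the scarcest of the 8 genes by amplicon reads, at 21.8, 23.1 and 18.2 RPM in BMP9 overexpression replicates 4, 5 and 6, against 25.3, 40.1 and 32 RPM in Control replicates 1, 2 and 3, with at least 43 reads per library. All BMP9 overexpression libraries lay below all controls, as for 31.2% of tested genes, but with a log2 fold change of -0.59 (SE 0.31, interval -1.25 to 0.08, limma adjusted p = 0.16) it missed the threshold, and TMM scaling gave -0.34. H2-Ob, its β chain, was at 32.4, 21.8 and 25.2 RPM in BMP9 overexpression and 27.5, 46.2 and 25 RPM in Control libraries (log2 fold change -0.27, adjusted p = 0.55). The ratio of H2-Oa to H2-DMa was 0.136, 0.279 and 0.144 in BMP9 overexpression replicates 4, 5 and 6, against 0.312, 0.329 and 0.337 in Control replicates 1, 2 and 3. On the log2 scale that pair differed by -0.86, with an exact permutation p of 0.1, or 0.3 adjusted over the 6 pairs.

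Along chromosome 17 the genes that rose stood beside genes that did not pass the test. From H2-Oa to the end of H2-Eb2 the class II genes span 249.1 kb in the order H2-Oa, H2-DMa, H2-DMb2, H2-DMb1, H2-Ob, H2-Ab1, H2-Aa, H2-Eb1 and H2-Eb2. H2-DMb1 lies next to H2-DMb2, and H2-Eb1 between H2-Aa and H2-Eb2, a little-transcribed β chain gene at 7.09, 4.31 and 4.69 RPM in BMP9 overexpression and 5.02, 6.05 and 3.5 RPM in Control libraries. Of the 3 tested class II genes of this stretch outside the 8, H2-Ob, H2-DMb2 and H2-Eb2, 0 were called in either direction by limma, adjusted or at an unadjusted p under 0.05, by edgeR or by DESeq2. The printed promoter stretches of H2-Aa and H2-Oa carry the same pair of motifs as those of H2-Eb1 and H2-DMb1. The promoters of H2-Ob and H2-Eb2 carry the pair too, while those of H2-DMa and H2-DMb2 do not. The letters and limits were set after the promoters had been read, and a link between motifs and change was not tested.

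**Figure D3:**
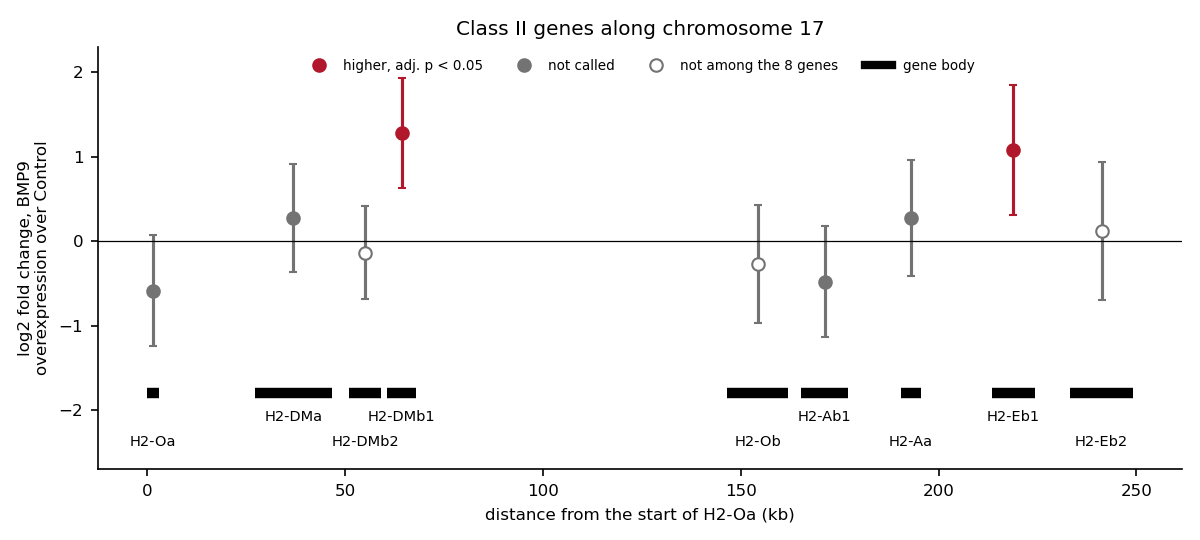
Log2 fold change, BMP9 overexpression over Control (point: limma estimate, bar: 95% confidence interval), of the class II genes against distance from the start of H2-Oa in kb, with gene bodies as black bars. H2-DMb1 (1.28) and H2-Eb1 (1.08) are the genes called higher, and the bars of the other 7 genes cross 0.

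Ciita, the coactivator of the class II genes (chromosome 16, 10480059 to 10528418, plus strand), was at 264, 447 and 305 RPM in BMP9 overexpression replicates 4, 5 and 6, against 133, 110 and 186 RPM in Control replicates 1, 2 and 3. The groups did not overlap. The log2 fold change was 1.24 (SE 0.29, interval 0.62 to 1.86, limma adjusted p = 0.0042). Within the earlier stamp it was 0.92 and the call was lost (adjusted p = 0.079), as with the stamp as a covariate (adjusted p = 0.068), over a range of 2.1e-05 to 0.079 across alternatives. Both settings rest on BMP9 replicate 4, the lowest of the BMP9 overexpression libraries for Ciita and the highest for Cd74, H2-Eb1 and H2-DMa.

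Genes that act on Ciita were taken from lists chosen with earlier results of these data known. Of 10 tested inducers 2 rose, 2 fell and 6 did not pass, while 4 rose with edgeR or without BMP9 replicate 4 and 5 with DESeq2. Over all tested genes 35.2% were called, so the 4 called inducers are near the background. Interferon gamma itself (Ifng) was at 17.2, 46.9 and 17.2 RPM in BMP9 overexpression replicates 4, 5 and 6, against 83.8, 119 and 69.5 RPM in Control replicates 1, 2 and 3, a log2 fold change of -1.83 (SE 0.38, limma adjusted p = 0.0018). Irf8, a transcription factor of dendritic cells and monocytes, was at 508 ± 86.7 RPM in BMP9 overexpression and 1380 ± 348 RPM in Control libraries (log2 fold change -1.42, adjusted p = 0.0013). The inducers that rose were Ifngr2, the signalling chain of the interferon gamma receptor (1.21, SE 0.26, adjusted p = 0.0024), and Spi1, the PU.1 factor of myeloid cells (1.01, SE 0.25, adjusted p = 0.0057), whose value within the earlier stamp was 0.92 with its call lost. Ciita was higher in the group in which Ifng and Irf8 were lower and Ifngr2 and Spi1 higher, but within groups the order varied. BMP9 replicate 5 was the highest of its group for Ciita, Ifng and Irf8. Control replicate 3 was the highest of its group for Ciita and the lowest for Ifng and Irf8. What part these genes have in the level of Ciita was not tested.

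In a list of Ciita repressors and genes of the pathways that lead to them, 2 of 6 tested genes rose, 1 fell and 3 did not pass. The shares over all tested genes were 12.7% higher and 22.5% lower. Il10rb, a chain of the IL-10 receptor, was at 843 ± 75.1 RPM in BMP9 overexpression and 236 ± 29.2 RPM in Control libraries (SD, n = 3 each; log2 fold change 1.83). Prdm1, the repressor BLIMP-1, rose by 0.99 (SE 0.28, adjusted p = 0.011), with 0.94 and a lost call within the earlier stamp (adjusted p = 0.076) and calls lost without Control replicate 3 (0.91) or BMP9 replicate 6 (0.93). Myc changed by -1.64 (SE 0.28). Il10 was at 13.2, 5.67 and 6.77 RPM in BMP9 overexpression replicates 4, 5 and 6, against 3.49, 4.54 and 5.5 RPM in Control replicates 1, 2 and 3 (log2 fold change 0.73, adjusted p = 0.17), and it passed the test after quantile normalization (1.09, adjusted p = 0.048) and with the stamp as a covariate (1.38, adjusted p = 0.041).

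Of 6 tested genes of the RFX, NF-Y and CREB factors that bind the X and Y boxes, 1 fell and 0 rose. With edgeR or DESeq2 on recovered reads 1 rose and 0 fell. At an unadjusted p under 0.05 limma gave 3 lower and 1 higher. As limma called 35.2% of all tested genes, 1 call among these 6 does not stand out from the background. Rfx5, the DNA-binding subunit of RFX, was at 4.05, 17.2 and 17.4 RPM in BMP9 overexpression replicates 4, 5 and 6, against 35.8, 32.5 and 27 RPM in Control replicates 1, 2 and 3 (log2 fold change -1.45, SE 0.44, limma adjusted p = 0.02). The value was -0.83 without BMP9 replicate 4 and -2.69 within the earlier stamp, and the call was lost with TMM scaling (-1.21, adjusted p = 0.054), without Control replicate 1 (-1.36) or 2 (-1.43) and with both count tools. Rfxap, another RFX subunit, gave 0.81 on the log2 scale (adjusted p = 0.086), and after TMM scaling 1.05 (adjusted p = 0.027). Creb1, which binds the X box beside RFX, was at -0.69 (adjusted p = 0.088), or -0.86 without BMP9 replicate 4, where it passed (adjusted p = 0.034).

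Most endosomal proteases that cut the invariant chain and antigens rose. Of 7 tested processing genes 4 rose and 0 fell (0 also at an unadjusted p under 0.05, with edgeR and with DESeq2), where 12.7% of all tested genes were called higher, with a median log2 fold change of 1.69, or 2.01 within the earlier stamp. Ctss, the cathepsin S that makes the last cut of the invariant chain in many antigen-presenting cells, was at 3703, 1772 and 2564 RPM in BMP9 overexpression replicates 4, 5 and 6, against 742, 701 and 903 RPM in Control replicates 1, 2 and 3 (log2 fold change 1.72, SE 0.31, limma adjusted p = 0.00066). Ctsl, cathepsin L, was at 1804 ± 737 RPM in BMP9 overexpression and 151 ± 10.8 RPM in Control libraries (3.49, SE 0.30), and Lgmn, a legumain that cuts at asparagine, at 1348 ± 600 RPM in BMP9 overexpression and 152 ± 47.4 RPM in Control libraries (3.11, SE 0.33). Ctsb, cathepsin B, rose by 1.69 (SE 0.30). For these 4 genes the BMP9 overexpression libraries lay above all controls, as for 16.8% of tested genes.

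The costimulatory ligands that accompany class II on antigen-presenting cells rose in part, 2 of 4 by limma and edgeR and 3 of 4 by DESeq2. None was lower by any tool or at an unadjusted p under 0.05. Of all 9460 tested genes limma called 12.7% higher, edgeR 1693 and DESeq2 1771. Cd80 was at 190, 139 and 148 RPM in BMP9 overexpression replicates 4, 5 and 6, against 20.9, 20.4 and 28 RPM in Control replicates 1, 2 and 3 (2.73, SE 0.28, limma adjusted p = 9.1e-06). Cd86 rose by 1.61 (SE 0.29, adjusted p = 0.00067), while Cd40 (0.50, adjusted p = 0.2) and Icosl (0.15, adjusted p = 0.72) did not pass. Of the genes that set how long class II stays at the surface, Cd83, which shields class II from ubiquitin, gave 2.35 (SE 0.49, limma adjusted p = 0.002). Its levels were 43, 9.53 and 30.4 RPM in BMP9 overexpression and 3.49, 2.27 and 6.5 RPM in Control libraries. Cd83 passed the filter of 5 RPM in 3 libraries only through the BMP9 overexpression libraries, with as few as 3 reads. Its call is therefore no support for a change in class II turnover, and it was lost without the filter (limma adjusted p = 0.057). March8, a ubiquitin ligase of the same family as March1, was at 1.06 on the log2 scale (adjusted p = 0.057), and past the threshold after TMM scaling (1.29, adjusted p = 0.022) or without Control replicate 3 (1.30, adjusted p = 0.045), and March1, the ligase that marks class II in dendritic cells, was at 0.227 RPM or below in all 6 libraries.

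**Figure D4:**
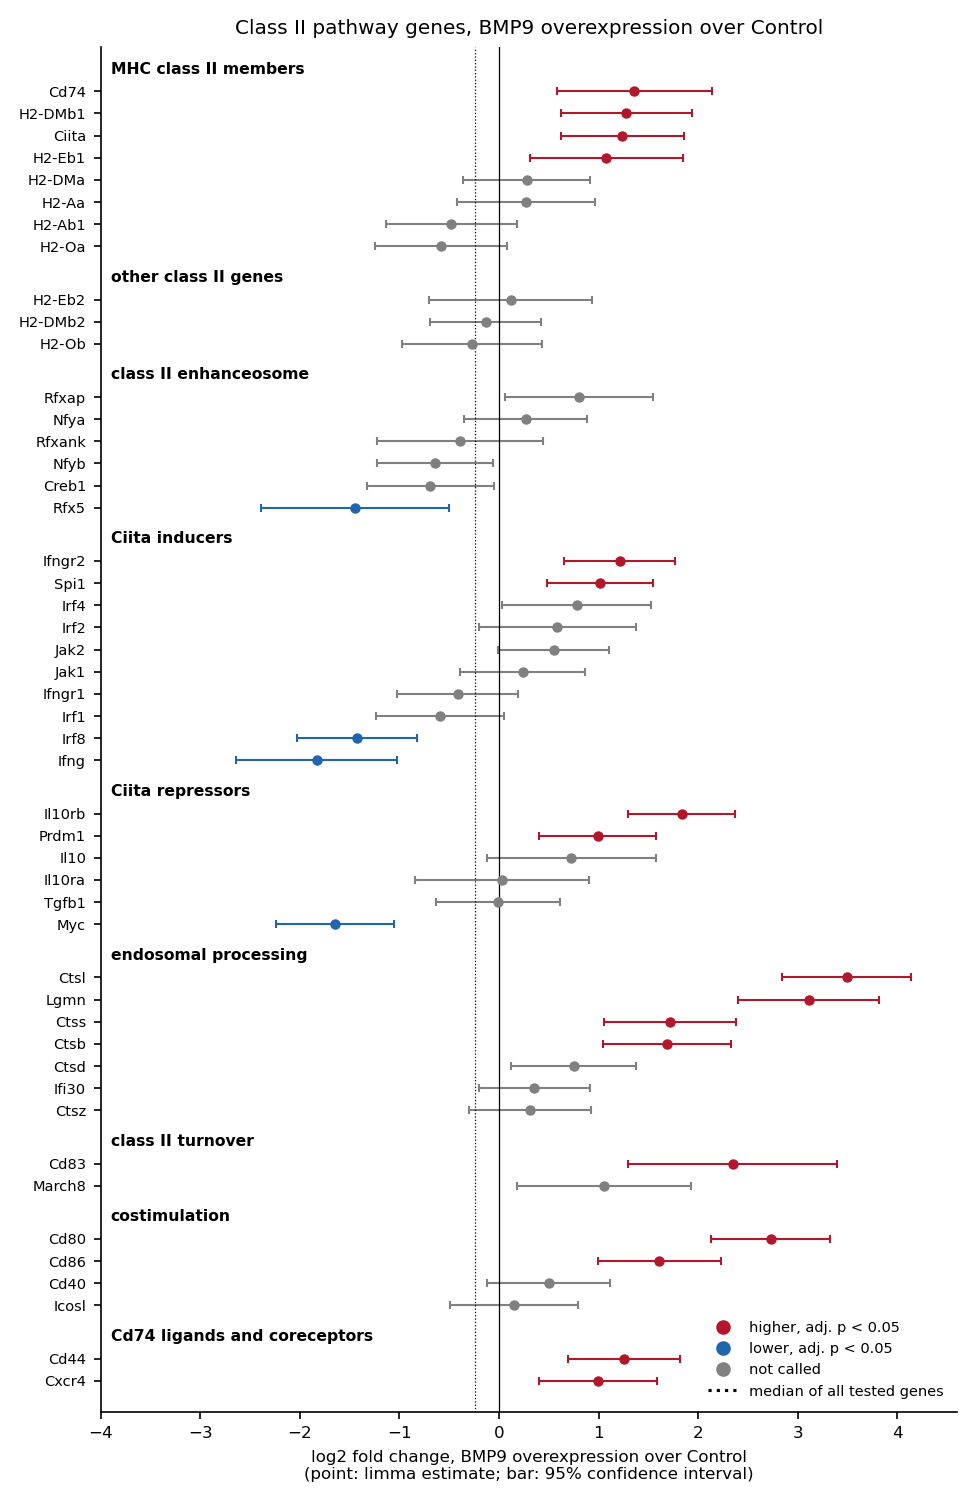
Log2 fold change, BMP9 overexpression over Control (point: limma estimate, bar: 95% confidence interval), for the 8 genes and the tested genes of 8 related lists; red marks genes called higher, blue lower, grey not called, and the dotted line is the median of all tested genes (-0.24). The members run from 1.36 (Cd74) to -0.59 (H2-Oa), and Ctsl, at 3.49, is the highest of the genes shown.

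Markers of the cell types that carry class II were set beside these values, since a bulk sample cannot tell fewer cells of a type from less RNA per cell. Of 11 tested macrophage and monocyte markers 11 rose (2 more of the 13 measured, C1qa and C1qc, did not pass the filter), where 12.7% of all tested genes rose. Their median was 2.36, and their summed level was 18840 to 24806 RPM in BMP9 overexpression and 4704 to 7299 RPM in Control libraries. Within the earlier stamp 8 of the 11 rose, as Lyz2 (1.02, adjusted p = 0.099), Adgre1 (1.11, adjusted p = 0.13) and Ccr2 (0.70, adjusted p = 0.13) lost their calls, and 8 rose with the stamp as a covariate. Among them were the integrin Itgam (3.21), the endosomal protein Cd68 (2.77), the mannose receptor Mrc1 (2.84) and the LPS co-receptor Cd14 (2.92). Lyz2, lysozyme, stood at 10540 ± 3031 RPM in BMP9 overexpression and 4528 ± 1087 RPM in Control libraries, and C1qa was listed at 0 in the controls and in BMP9 replicate 4. C1qb, of the same marker list, was at 1464 ± 384 RPM in BMP9 overexpression and 282 ± 52.2 RPM in Control libraries. Whether the amplicon of C1qa reads out poorly was not tested. The chains H2-Aa, H2-Ab1 and H2-Eb1 per RPM of these markers came to 0.347, 0.212 and 0.213 in BMP9 overexpression replicates 4, 5 and 6, against 0.408, 0.99 and 0.646 in Control replicates 1, 2 and 3, without overlap. Cd74 per RPM of the same markers was 0.572, 0.512 and 0.275 in BMP9 overexpression and 0.373, 0.699 and 0.756 in Control libraries, and the groups overlapped. Leaving Lyz2 out of the sum gave 0.633 to 1.02 for Cd74 in BMP9 overexpression and 1.52 to 2.66 in Control libraries, without overlap. The ratio of the class II chains to macrophage markers was thus lower in BMP9 overexpression libraries, where the marker sum was higher and the chain sums overlapped with those of controls. Class II per macrophage cannot be read from such a ratio in a bulk sample, and the part of macrophages in the results above was not tested.

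Dendritic cell and B cell markers showed no such common shift. Of 10 tested dendritic cell markers 1 rose, 2 fell and 7 did not pass, with a median of -0.19. Among all tested genes 12.7% rose and 22.5% fell, so these counts are near the background. The dendritic cell markers had a sum of 538 to 892 RPM in BMP9 overexpression and 567 to 730 RPM in Control libraries. Itgax gave the largest part of that sum, at 412 ± 123 RPM in BMP9 overexpression and 399 ± 85.9 RPM in Control libraries, so the sum says little about the scarcer markers. Xcr1, of cross-presenting dendritic cells, fell by 1.42 and Siglech, of plasmacytoid dendritic cells, by 1.16 on the log2 scale, while Clec10a, a lectin of dendritic cells and macrophages, rose by 0.89 (limma adjusted p = 0.03). The Clec10a call was lost without Control replicate 1 (0.89), 2 (0.84) or 3 (0.94) or BMP9 replicate 4 (0.71), and 2 dendritic cell markers rose without BMP9 replicate 5. The Siglech call was lost within the earlier stamp (-0.99, adjusted p = 0.074) and without Control replicate 1 (-1.05, adjusted p = 0.052). Of 5 tested B cell markers 0 were called in either direction by limma, adjusted or at an unadjusted p under 0.05, by edgeR or by DESeq2, and without BMP9 replicate 4 Ms4a1 (CD20) passed the test (-1.08, adjusted p = 0.038). Their sum was 57 to 84.1 RPM in BMP9 overexpression and 56.7 to 79 RPM in Control libraries. Of 9 tested T and NK cell markers 9 fell (median -2.41), or 7 by edgeR, 8 by DESeq2, 8 within the earlier stamp, 7 with the stamp as a covariate. Leaving out either Control replicate 3 or BMP9 replicate 6 gave 7. The share called lower over all tested genes was 22.5%. Within the earlier stamp the T cell gene Cd3d was at -0.34 (adjusted p = 0.55), against -1.34 over all libraries. The T and NK cell markers had a sum of 540 to 795 RPM in BMP9 overexpression and 3668 to 4007 RPM in Control libraries. Of 3 tested tumour and epithelial cell markers 1 rose, the keratin Krt18 (1.38). Its levels were 7.09, 5.44 and 7.47 RPM in BMP9 overexpression replicates 4, 5 and 6. Control replicates 1, 2 and 3 had 2.84, 2.27 and 1 RPM, with as few as 2 reads. Krt18 thus passed the filter of 5 RPM in 3 libraries only through the BMP9 overexpression libraries. Its call is therefore no support for a change in tumour cells. Leaving out Control replicate 3 (1.10) or BMP9 replicate 6 (1.30) removed the call, as did dropping the filter (adjusted p = 0.067). Within the earlier stamp the value was 1.47. Of 9 tested genes that respond to tissue dissociation 5 rose and 0 fell (0 also at an unadjusted p under 0.05 and by edgeR or DESeq2), with a median of 1.11. Limma called 12.7% of all tested genes higher, and without the filter on low values 3 of the dissociation genes rose. What part these cell types or the dissociation response have in the class II values was not tested.

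**Figure D5:**
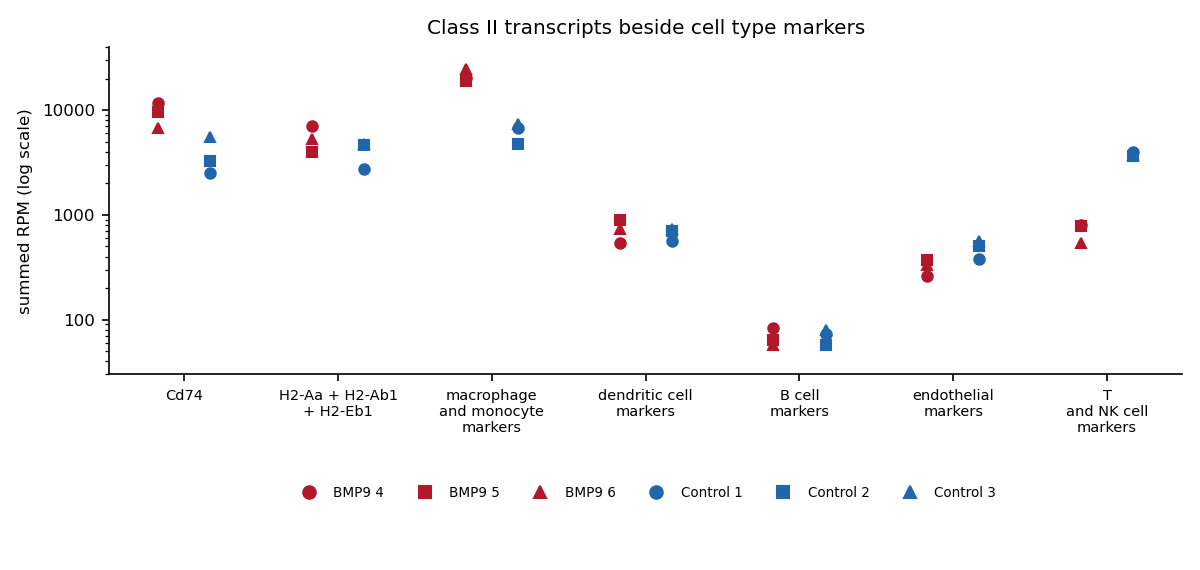
Summed RPM on a log axis for Cd74, the 3 class II chains and the marker lists of 5 cell types, 1 point per library, BMP9 overexpression in red left of Control in blue. The macrophage and monocyte sum is at least 18840 RPM in BMP9 overexpression and at most 7299 RPM in Control libraries, whereas the sums of the 3 chains, the dendritic cell markers and the B cell markers overlap between groups.

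The genes whose pattern over the 6 libraries was most like that of the summed class II chains were found among the 8261 genes that averaged 10 RPM or more, by the root mean square (RMS) difference of centred log2(RPM + 1) values. They were Rhoc (0.12 log2 units), Maml1 (0.15), Nenf (0.15), Cotl1 (0.15) and Hp1bp3 (0.15), against an RMS of 0.41 for the chain profile itself. Rhoc, a small GTPase of cell movement, was at 19.8, 11.8 and 15.2 RPM in BMP9 overexpression replicates 4, 5 and 6, against 8.95, 13.6 and 16.5 RPM in Control replicates 1, 2 and 3. With each group centred on its own mean the nearest genes were Rdh10 (0.026), Pelo (0.072), Rhoc (0.084), Fam117b (0.087) and Cebpb (0.10). With 6 libraries this likeness is a description only. Cebpb, a transcription factor of myeloid cells, followed the chains within groups but rose by 2.58 between them (limma adjusted p = 1.2e-05).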

How the data were processed

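RNA of CD31-positive cells sorted from tumours was read with an Ion AmpliSeq mouse transcriptome panel, 1 amplicon per gene, on Ion Torrent, per the labels' protocols. mm10 is the only genome build named, per the submitters' processing notes. The aligner and counter were not given in the sources used here. RPM, already scaled to each library by the authors, was the deposited unit. Whole reads were recovered for 100% of nonzero values within 0.05 reads and served count tests as alternatives, in which edgeR called 3114 and DESeq2 3317 genes. Floors cover counting error only, as reads carry no molecular identifiers.

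All 6 libraries, 3 per group by title, entered limma-trend in R 4.3.3 (limma 3.58.1) after a log2(RPM + 1) transform. A gene was tested where 3 or more libraries reached 5 RPM, and p-values were adjusted by Benjamini-Hochberg over all 9460. Every adjusted p comes from it unless another tool is named, and fold changes are BMP9 overexpression minus Control on that scale, which understates changes of low genes. Pairs of genes were compared by exact permutation. The procedure was tested on simulated data. Alternatives were pseudocounts of 0.5 and 5, no filter, a mean of at least 20 RPM, TMM, quantile normalization, the run time stamp as covariate or the earlier stamp alone, thinning to 1321762 reads, edgeR 4.0.16, DESeq2 1.42.0 and each library left out. Summing H2-DMb1 and H2-DMb2 was added after seeing the data.

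The genes and the 15 lists (113 genes, 105 of them in the table) were chosen with earlier results of these data known. Named are the 8 genes, up to 4 genes of smallest p per list (with untested genes where fewer than 4 were tested), Pecam1, Gdf2, and 5 genes of most like pattern by each of 2 centrings. Some genes the rule names are counted in their lists without values of their own, and 1 item is not reported here. C1qa, C1qb, C1qc, Lyz2, Adgre1, Ccr2, Itgax and Cd3d fall outside the rule and were chosen after their values were seen. Positions are GENCODE M21 genes, and amplicon positions were not used.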

Additional observations from a re-analysis of the deposited data

How the results depend on the processing

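Of 17 alternatives per gene (18 for H2-DMb1), direction and call held in all for H2-Ab1, H2-DMa and H2-Oa, in 16 for H2-Aa, in 17 for H2-DMb1, in 15 each for Cd74 and Ciita and in 12 for H2-Eb1. Without the filter on low values 2 of the 8 genes were called, 2 of them higher, as H2-Eb1 (1.08, adjusted p = 0.2) and Cd74 (1.36, adjusted p = 0.24) lost their calls, and the cause was not tested. Quantile normalization gave H2-Eb1 0.95. The stamp as a covariate and the earlier stamp alone, which are 1 contrast with different spreads, gave Ciita 0.92 each, and the summed H2-DMb genes gave 0.69. Leaving out each library gave 2 to 4 called members, all higher, and log2 fold changes of -0.037 to 0.53 for H2-Aa, 0.69 to 1.34 for H2-Eb1, 1.10 to 1.67 for Cd74, 1.02 to 1.45 for Ciita and 1.05 to 1.62 for H2-DMb1. An arm with fewer libraries is assumed to vary like the other.

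H2-DMa minus H2-Aa was -0.0053 with a pseudocount of 5, -0.049 after thinning and -0.16 to 0.18 without single libraries. Signs also turned for values that were not called. H2-Ob was 0.032 with either stamp setting. H2-DMb2 was 0.12 with TMM, 0.12 with edgeR and 0.11 with DESeq2. Ms4a1 was 0.39 with either stamp setting. Pax5 was 0.11 with TMM or edgeR, 0.18 after quantile normalization and 0.094 for DESeq2. Without single libraries H2-Eb2 ranged from -0.068 to 0.26, Icosl from -0.019 to 0.27 and Cd79b from -0.097 to 0.51. Over all genes 2130 were called lower, against 1383 with TMM and 1367 without Control replicate 1. No paired analysis was possible because the groups share no replicate number. Each of the 8 genes had at least 43 reads in every library, and groups of 3 libraries limit what the tests can show.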
